A study of Mus musculus with 12 samples.

Results

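The skeletal muscle genes of KCip53-1 tumors comprised 37 of the 22630 mouse genes measured, picked by symbol as genes of the contractile apparatus of the skeletal muscle fibre and of its calcium and energy supply. They were picked with earlier results of these tumors known, so their levels and their differences between groups are given as a description. All 37 had a value in every tumor, and all 37 passed the count minimum used for the comparisons. By role, 9 encode proteins of the thick filament, 8 of the thin filament, 10 of the Z-disc and cytoskeleton, 6 of calcium handling and 4 of energy supply.

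The tumors were grown under the skin from KCip53-1, a mouse pancreatic cancer line from an animal that carried Ptf1a-Cre, R26-rtTa and TREp53R270H, among other alleles. Ptf1a-Cre is active in the pancreatic lineage, and doxycycline (dox) switches on mutant p53 and a dsRed reporter through rtTa. The line is 1 line from 1 animal, sorted for dsRed, and had lost its wild-type p53. Hosts were NSG mice, which lack T, B and NK cells, 8 to 10 weeks old at use, and each received 500000 cells per tumor and carried a pair of tumors. The no-dox group (n = 4) never received dox in the host, and the paper takes it to lack mutant p53 expression. The line had been kept on dox in culture, so the injected cells had met dox before. The plus-dox group (n = 4) drank dox at 0.2 g/l in 5% sucrose for 36 days. The off-dox group (n = 4) drank it for 33 days and then went without for 3 days. Whole, unsorted tumors were sequenced, so each value mixes tumor cells and host tissue, and the labels do not say which tumors shared a mouse; p-values therefore measure the spread between these tumors only.

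Skeletal muscle fibres hold myofibrils, chains of sarcomeres in which thick filaments of myosin pull on thin filaments of actin anchored at the Z-disc. An electrical signal reaches the fibre's interior through the voltage sensor, opens the calcium release channel of the sarcoplasmic reticulum, and calcium bound to troponin C frees actin for myosin until the calcium pump clears it. Fast and slow fibres use different members of the same protein families, and in the mouse a thin sheet of mostly fast fibres, the panniculus carnosus, lies beneath the skin.

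Counted reads per tumor ranged from 19845923 to 33137609. Counted reads made up 88.4% to 89.4% of mapped reads without dox, 82.2% to 87.1% with dox and 81.1% to 85.8% after withdrawal; this share moved with the groups, and its part in the results was not tested. Trp53 reads do not separate the transgene from the endogenous gene, and its level in RPKM (reads scaled by exonic length and by mapped depth) lay between 40.1 and 57.4 in the 12 tumors, and the groups overlapped. Krt8, an epithelial marker of the tumor cells, lay between 318 and 973 RPKM and differed with the groups. Its ranges were 830 to 973 RPKM (no-dox), 504 to 588 (plus-dox) and 318 to 810 (off-dox). Every no-dox tumor was thus above all others for Krt8. The summed level of 10 tumor epithelium genes was 2677 to 3595 RPKM (no-dox), 1411 to 2294 (plus-dox) and 1220 to 3044 (off-dox). For this sum only the plus-dox group lay wholly below the no-dox group.

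The 37 genes together varied widely within each group. Their summed level, in CPM (counts scaled by each tumor's TMM-corrected total), was 650.8, 259, 489 and 108 in no-dox tumors 1 to 4. It was 748, 2054, 657 and 538 in plus-dox tumors 1 to 4, and 538, 2715, 4541 and 197 in off-dox tumors 1 to 4. Off-dox tumors 2 and 3 were the highest, plus-dox tumor 2 came next, and no-dox tumor 4 and off-dox tumor 4 were the lowest. Group means were 377 ± 241, 999 ± 709 and 1997 ± 2029 CPM for no-dox, plus-dox and off-dox (SD, n = 4 each), and every group overlapped with the others. The highest tumor exceeded the lowest by 6.04-fold in the no-dox group, 3.82-fold in the plus-dox group and 23.1-fold in the off-dox group. As a share of counted reads the genes ran from 0.0101% in no-dox tumor 4 (95% Wilson interval 0.00976% to 0.0104%) to 0.481% in off-dox tumor 3 (0.478% to 0.484%); these intervals cover counting error only. In whole tumors, fewer muscle fibres and less RNA per fibre cannot be told apart.

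**Figure D1:**
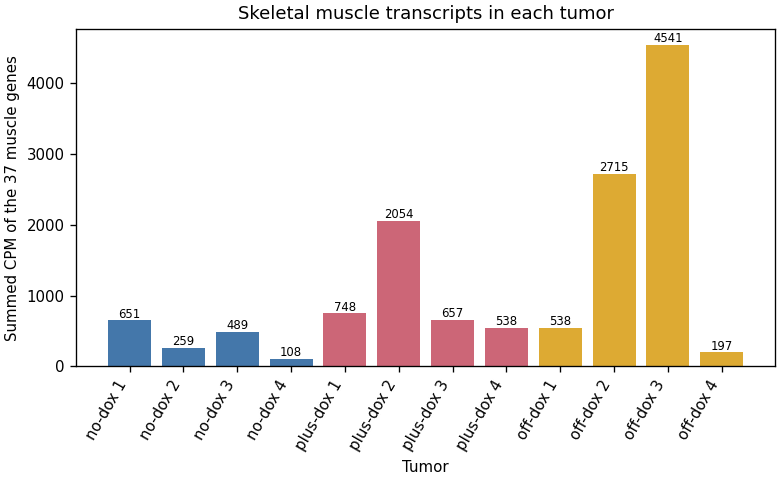
Summed level of the 37 skeletal muscle genes in each of the 12 tumors, in CPM (1 bar per tumor, coloured by group). Off-dox tumor 3, at 4541 CPM, and off-dox tumor 4, at 197 CPM, belong to the same group, and the 3 groups overlap.

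The same tumor led for most members. Off-dox tumor 3 held the highest level of 31 of the 37 genes, while 12.3% of the 14548 genes with a mean over 0.25 RPKM had their highest level there. The lowest level fell in no-dox tumor 4 for 17 members and in off-dox tumor 4 for 12. Members rose and fell together across the tumors: for 22 of 37, the Pearson correlation with the mean of the other members over the 12 tumors was above 0.9 on the log2 CPM scale, with Myl1 the highest at 0.99. These correlations are a description over 12 tumors, and all members of a tumor share its library and depth. Speg, Igfn1, Eno3, Myl2, Tnnt1, Tnni1 and Tnnc1 were the 7 members below 0.6.

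**Figure D2:**
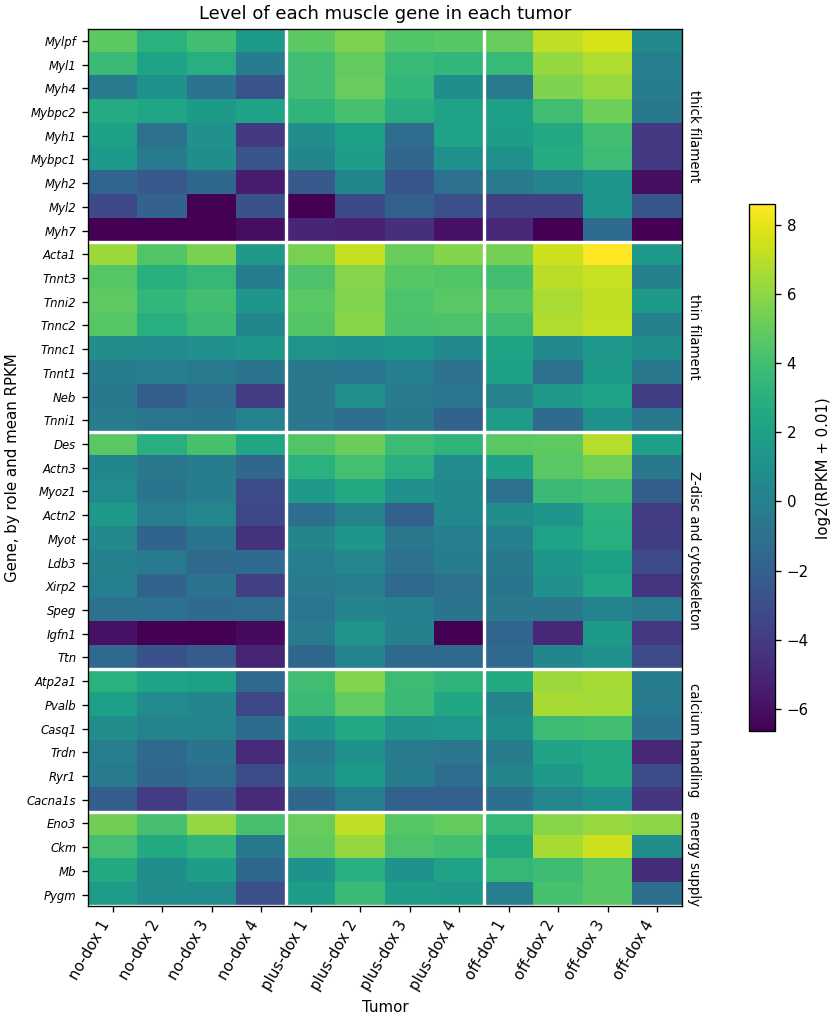
Level of each of the 37 genes (vertical axis, by role and mean level) in each tumor (horizontal axis), coloured by log2(RPKM + 0.01). The columns of off-dox tumors 2 and 3 are bright and those of no-dox tumor 4 and off-dox tumor 4 dark for most genes, while Tnnc1, Tnnt1, Tnni1, Speg and Eno3 vary on another pattern.

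The bases before the start sites of the members were searched for the letters that muscle transcription factors are known to bind. RefSeq start sites (GRCm38.p6) were matched for 30 of the 37 genes, and the 250 bases before each start were read on both strands. The E-box CANNTG, the element of MyoD family factors, was in 26 of the 30 (86.7%), against 69.3% of 27025 genes. The narrower form CAGCTG, which is also counted in CANNTG, was in 16 (53.3%), against 14.7% of genes. The MEF2 element was in 6 (20%), against 1.99% of genes, and the CArG box, the element of serum response factor, was in 3 (10.0%), against 1.62%. The letters TATAAA, read on the forward strand only, were in 4 (13.3%), against 8.94%. A match is a description of the letters in this window, and no test was run.

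The upstream windows of 4 members are printed below in lower case, 5′ to 3′ on the gene's strand, with E-box, MEF2 and CArG matches in capitals. Acta1 and Eno3 are shown as the members of the highest mean level, and Myh1 and Myh4, chosen after their values were seen, as the fast myosins whose order differed between tumors. Acta1 lies at chr8:123894776-123895025 on the minus strand, Eno3 at chr11:70656926-70657175, Myh1 at chr11:67199852-67200101 and Myh4 at chr11:67237562-67237811, the last 3 on the plus strand.
Acta1: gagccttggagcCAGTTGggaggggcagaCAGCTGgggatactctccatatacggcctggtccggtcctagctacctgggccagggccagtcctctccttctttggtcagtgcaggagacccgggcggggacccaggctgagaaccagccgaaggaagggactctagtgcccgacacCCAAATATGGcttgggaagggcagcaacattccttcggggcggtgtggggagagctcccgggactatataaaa
Eno3: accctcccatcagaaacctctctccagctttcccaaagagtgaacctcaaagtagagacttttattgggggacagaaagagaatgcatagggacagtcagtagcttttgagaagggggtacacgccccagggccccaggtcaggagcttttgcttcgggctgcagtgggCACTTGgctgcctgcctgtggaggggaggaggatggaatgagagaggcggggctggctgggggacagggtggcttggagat
Myh1: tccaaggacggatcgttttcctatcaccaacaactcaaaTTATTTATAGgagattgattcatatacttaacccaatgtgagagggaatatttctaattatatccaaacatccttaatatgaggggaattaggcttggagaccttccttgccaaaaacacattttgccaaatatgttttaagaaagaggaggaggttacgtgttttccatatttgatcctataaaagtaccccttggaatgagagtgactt
Myh4: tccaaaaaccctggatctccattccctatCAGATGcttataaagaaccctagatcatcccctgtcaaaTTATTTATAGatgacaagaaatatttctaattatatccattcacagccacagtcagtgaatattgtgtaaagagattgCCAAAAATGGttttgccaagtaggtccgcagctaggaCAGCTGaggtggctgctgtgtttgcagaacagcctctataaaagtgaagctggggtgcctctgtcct
The Acta1 window held E-box matches starting 238 and 221 bases before the start and a CArG match at 73. Eno3, which followed the other members least among the abundant ones, held 1 E-box match, at 81 bases. The same 10 MEF2 letters occurred in the Myh1 window at 211 bases and in the Myh4 window at 182. The Myh4 window also held E-box matches at 221 and 67 bases and a CArG match at 104, and the Myh1 window held neither of these elements.

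Of the thin filament genes, Acta1 had the highest mean level of all 37 members. This gene, skeletal muscle actin (mm9 chromosome 8, 126415667 to 126418636), was at 78.8, 22.3, 46.9 and 2.99 RPKM in no-dox tumors 1 to 4, at 45.3, 152, 33.6 and 55.4 in plus-dox tumors and at 42.9, 172, 388 and 2.83 in off-dox tumors. Off-dox tumors thus held both the highest and the lowest level, and the group means were 37.8 ± 32.8, 71.7 ± 54.6 and 152 ± 174 RPKM (SD, n = 4) with overlapping values. Tnnt3, the fast troponin T that ties the troponin complex to tropomyosin, was at 24.3, 8.06, 11.6 and 0.842 RPKM in no-dox tumors, at 20.1, 56.6, 24.7 and 22.1 in plus-dox tumors and at 16.0, 128, 158 and 1.04 in off-dox tumors. Tnni2, the fast inhibitory troponin, was at 28.4, 10.9, 15.9 and 2.49 RPKM in no-dox tumors, at 26.1, 51.6, 19.7 and 26.5 in plus-dox tumors and at 22.3, 102, 143 and 3.19 in off-dox tumors. Both genes shared with Acta1 the high off-dox tumors 2 and 3 and the low tumor 4 of the no-dox and off-dox groups. Tnnc2, the fast calcium sensor, reached 147 RPKM in off-dox tumor 3 and 0.988 in off-dox tumor 4, and Neb, the giant protein laid along the thin filament, ran from 0.0581 to 4.51 RPKM.

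The slow troponins kept to a narrow range in most tumors. Tnnc1, the slow and cardiac calcium sensor, was at 1.85, 1.60, 2.12 and 2.64 RPKM in no-dox tumors, at 2.33, 2.15, 2.66 and 1.48 in plus-dox tumors and at 4.83, 1.47, 2.80 and 1.90 in off-dox tumors. Tnni1, the slow inhibitory troponin, was at 0.875, 0.618, 0.575 and 1.08 RPKM in no-dox tumors, at 0.642, 0.452, 0.704 and 0.283 in plus-dox tumors and at 3.38, 0.396, 2.28 and 0.673 in off-dox tumors. Tnnt1, the slow troponin T, was at 0.823, 0.925, 0.750 and 0.578 RPKM in no-dox tumors, at 0.692, 0.616, 0.942 and 0.508 in plus-dox tumors and at 4.14, 0.531, 3.13 and 0.687 in off-dox tumors. All 3 slow troponins were highest in off-dox tumor 1, where the summed fast members lay within the no-dox range, and low in off-dox tumor 2, where the fast members were among the highest.

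Thick filament genes were led by the light chains. Mylpf, the fast regulatory light chain, was at 27.0, 8.58, 15.8 and 3.11 RPKM in no-dox tumors, at 27.5, 48.4, 22.0 and 24.8 in plus-dox tumors and at 32.7, 141, 208 and 1.59 in off-dox tumors. Myl1, the fast essential light chain, was at 13.5, 4.66, 7.39 and 0.875 RPKM in no-dox tumors, at 14.9, 30.4, 12.9 and 10.9 in plus-dox tumors and at 12.6, 71.6, 108 and 0.961 in off-dox tumors. For these genes, plus-dox tumors 1, 3 and 4 were close to no-dox tumor 1, and plus-dox tumor 2 stood above the rest of its group. Mybpc2, the fast myosin binding protein C, ran from 0.698 to 37.6 RPKM. Mybpc1, its counterpart, counted here with neither the fast nor the slow members, ran from 0.0503 to 14.1. Myl2, the slow and ventricular regulatory light chain, reached 2.52 RPKM in off-dox tumor 3.

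The myosin heavy chains, the motors of the sarcomere, did not share a pattern. Myh4, the motor of the fastest (IIb) fibres, was at 0.755, 2.29, 0.560 and 0.143 RPKM in no-dox tumors, at 14.9, 33.3, 10.8 and 1.90 in plus-dox tumors and at 0.799, 50.4, 77.4 and 0.837 in off-dox tumors. Plus-dox tumors 1 to 3 and off-dox tumors 2 and 3 were above every no-dox tumor, while plus-dox tumor 4 and off-dox tumors 1 and 4 fell inside the no-dox range. Myh1, the motor of IIx fibres, was at 4.15, 0.519, 2.10 and 0.0493 RPKM in no-dox tumors, at 1.82, 3.99, 0.430 and 4.39 in plus-dox tumors and at 3.67, 5.76, 15.6 and 0.0499 in off-dox tumors. Myh2, the motor of IIa fibres, was at 0.301, 0.180, 0.348 and 0.0133 RPKM in no-dox tumors, at 0.179, 1.24, 0.156 and 0.534 in plus-dox tumors and at 0.783, 1.17, 2.55 and 0.00548 in off-dox tumors. For Myh1 and Myh2 all 3 groups overlapped. Myh7, the slow and ventricular motor, was listed at 0 in no-dox tumors 1 to 3 and at 0.00482 RPKM in no-dox tumor 4, at 0.0216, 0.0164, 0.0316 and 0.00704 in plus-dox tumors, and at 0.0219, 0, 0.394 and 0 in off-dox tumors. That is 1 count of Myh7 over the no-dox group, 14 over the plus-dox group and 60 over the off-dox group, so its ratio of plus-dox to no-dox, 15.5, had a counting interval of 2.36 to 655.

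Set side by side, Myh4 and Myh1 changed order between tumors. The 2 genes are neighbours in mm9 on chromosome 11 (Myh1 at 67013616 to 67038077, Myh4 at 67051531 to 67073948), 13453 bases apart, with Myh2 2596 bases before Myh1. Levels per length gave Myh4 over Myh1 ratios of 0.182, 4.41, 0.267 and 2.91 in no-dox tumors 1 to 4, of 8.20, 8.35, 25.2 and 0.432 in plus-dox tumors and of 0.218, 8.75, 4.96 and 16.8 in off-dox tumors. Myh4 was thus the leading heavy chain in 8 tumors and Myh1 in 4 (no-dox tumors 1 and 3, plus-dox tumor 4 and off-dox tumor 1). The ratios in no-dox tumor 4 and off-dox tumor 4 rested on few reads, with 11 and 9 counts of Myh1 there. Myh4 made up 44.4 ± 32.4% of the RPKM of the 4 heavy chains without dox, 74.2 ± 31.2% with dox and 69.4 ± 36.5% after its withdrawal (SD, n = 4 each), and the groups overlapped. These genes are close copies: 25.2% of the 50-base words of Myh1 transcripts, 26.5% of those of Myh2 and 18.8% of those of Myh4 occur in another gene, and how the authors' counting placed such reads is not known, so the exact ratios are uncertain.

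**Figure D3:**
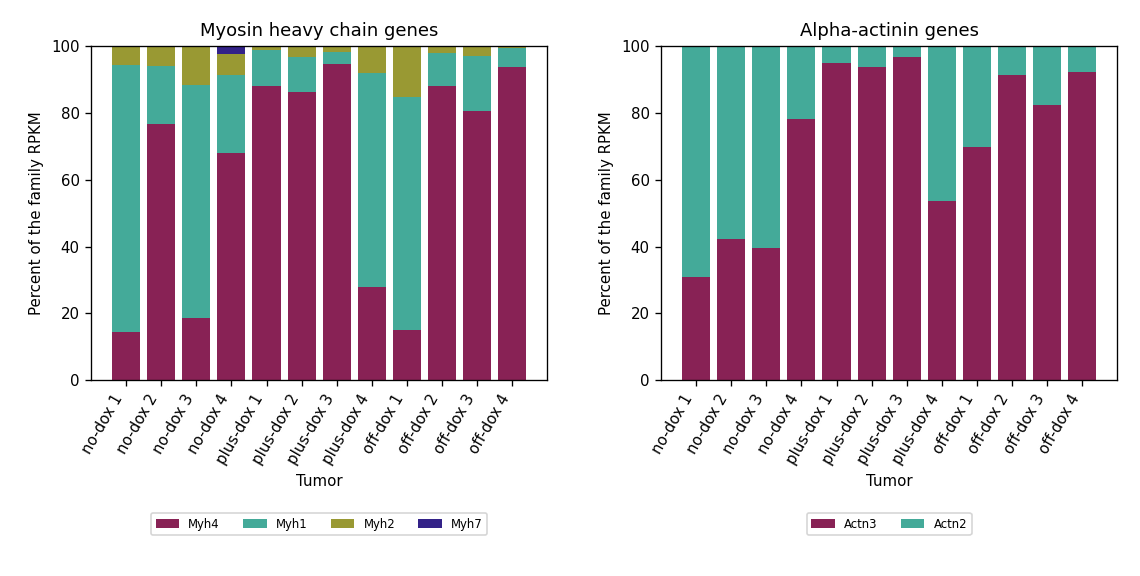
Share of each gene in the summed RPKM of its family in each tumor (1 stacked bar per tumor, percent) for 4 myosin heavy chain genes on the left and 2 alpha-actinin genes on the right. Myh1 is the largest part in no-dox tumors 1 and 3, plus-dox tumor 4 and off-dox tumor 1, and Actn3 has its smallest shares in no-dox tumors 1 to 3.

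Genes of the Z-disc and cytoskeleton spanned the same range. Des, the intermediate filament protein desmin of every muscle type, was at 26.4, 7.50, 18.01 and 5.15 RPKM in no-dox tumors, at 22.4, 36.5, 14.2 and 10.1 in plus-dox tumors and at 26.2, 28.0, 119.7 and 3.92 in off-dox tumors. Actn3, the alpha-actinin that crosslinks actin in fast fibres (mm9 chromosome 19, 4861223 to 4877884), was at 1.28, 0.675, 0.864 and 0.323 RPKM in no-dox tumors, at 8.52, 16.9, 7.47 and 1.61 in plus-dox tumors and at 4.22, 26.1, 40.4 and 0.666 in off-dox tumors. Every plus-dox tumor and 3 of 4 off-dox tumors were above all no-dox tumors for Actn3. Myoz1, a calcineurin-binding Z-disc protein of fast fibres, was at 1.64, 0.590, 0.833 and 0.104 RPKM in no-dox tumors, at 3.01, 6.23, 2.12 and 1.49 in plus-dox tumors and at 0.504, 13.7, 15.7 and 0.232 in off-dox tumors. Actn2, the alpha-actinin of all striated fibres, was at 2.88, 0.924, 1.32 and 0.0904 RPKM in no-dox tumors, at 0.449, 1.10, 0.255 and 1.398 in plus-dox tumors and at 1.82, 2.49, 8.60 and 0.0559 in off-dox tumors. Actn2 thus did not share the higher plus-dox levels of Actn3. The ratio of Actn3 to Actn2 was 0.445, 0.730, 0.657 and 3.58 in no-dox tumors, 19.0, 15.3, 29.3 and 1.15 in plus-dox tumors and 2.32, 10.5, 4.69 and 11.9 in off-dox tumors. Plus-dox tumor 4 was the only plus-dox tumor within the no-dox range of this ratio, and it was also the only plus-dox tumor led by Myh1. The rest of the role ran from 0.0194 to 2.01 RPKM for Ttn, the giant spring titin, and from 0.0367 to 7.45, 0.0998 to 4.00 and 0.0390 to 5.13 for the Z-disc and actin-binding proteins Myot, Ldb3 and Xirp2.

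**Figure D4:**
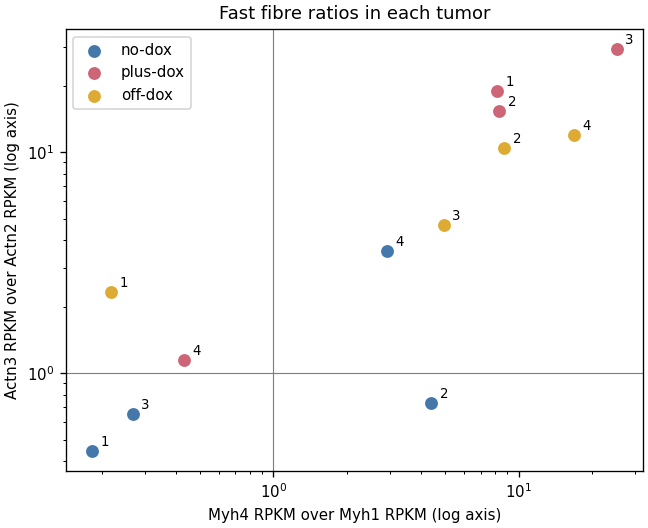
Ratio of Actn3 to Actn2 RPKM (vertical, log axis) against the ratio of Myh4 to Myh1 RPKM (horizontal, log axis), 1 point per tumor, with the tumor number beside it and grey lines at equal levels. No-dox tumors 1 and 3, plus-dox tumor 4 and off-dox tumor 1 lie left of the vertical line, with Myh4 over Myh1 between 0.182 and 0.432.

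Igfn1 and Speg differed from the other Z-disc and cytoskeleton genes. Igfn1, a Z-disc protein of skeletal muscle (mm9 chromosome 1, 137850155 to 137902919), was at 0.00656, 0, 0 and 0.00300 RPKM in no-dox tumors, at 0.792, 2.32, 1.03 and 0 in plus-dox tumors and at 0.299, 0.0230, 3.14 and 0.0472 in off-dox tumors. All no-dox tumors together held 3 counts, against 1194 for the plus-dox group and 810 for the off-dox group, so the depth-scaled ratios of 441 (counting interval 150 to 2139) and 343 (117 to 1668) rest on 3 no-dox reads. Plus-dox tumor 4 had none, and off-dox tumor 2, with the second highest summed level of the 37 genes, had 0.0230 RPKM. Speg, a kinase of the calcium release units of striated muscle, had the narrowest fold span, at 0.507, 0.496, 0.389 and 0.428 RPKM in no-dox tumors, at 0.636, 1.21, 0.941 and 0.574 in plus-dox tumors and at 0.677, 0.646, 1.17 and 0.770 in off-dox tumors. Every plus-dox and off-dox tumor was above every no-dox tumor for Speg, which was named after its values were seen.

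Among calcium handling genes, the 3 of the highest mean level were Atp2a1, Pvalb and Casq1. Atp2a1, the calcium pump of fast fibres, was at 8.58, 4.51, 4.01 and 0.365 RPKM in no-dox tumors, at 15.5, 51.5, 13.9 and 9.61 in plus-dox tumors and at 6.18, 78.9, 99.4 and 0.844 in off-dox tumors. Pvalb, the calcium buffer parvalbumin of fast fibres, was at 3.87, 1.66, 1.28 and 0.0907 RPKM in no-dox tumors, at 13.2, 30.8, 13.5 and 5.47 in plus-dox tumors and at 1.23, 98.2, 89.0 and 0.748 in off-dox tumors. Casq1, which stores calcium in the sarcoplasmic reticulum, was at 1.80, 1.14, 1.11 and 0.401 RPKM in no-dox tumors, at 2.52, 5.84, 2.41 and 2.81 in plus-dox tumors and at 1.92, 14.2, 15.6 and 0.554 in off-dox tumors. For all 3 genes, the lowest plus-dox tumor lay above the highest no-dox tumor, and off-dox tumor 4 lay within the no-dox range. Ryr1, the calcium release channel, ran from 0.108 to 6.02 RPKM, Cacna1s, the voltage sensor that gates it, from 0.0259 to 2.04, and Trdn, which anchors the release complex, from 0.0222 to 6.45. Trdn and Cacna1s followed Myh1 (r 0.92 and 0.87) somewhat more closely than Myh4 (0.80 and 0.82), and Cacna1s was higher in off-dox tumor 1, at 0.468 RPKM, than in plus-dox tumor 1, at 0.343. Over the 12 tumors, log2 CPM followed Myh4 more closely than Myh1 for 14 of the 35 other members, with r to Myh4 of 0.96 for Pvalb, 0.93 for Actn3, 0.93 for Myoz1 and 0.91 for Atp2a1. It followed Myh1 more closely for 21, with r to Myh1 of 0.97 for Mybpc1, 0.96 for Myh2, 0.96 for Acta1, 0.94 for Mb and 0.94 for Actn2. These are descriptions over 12 tumors that share libraries and depth.

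Energy supply genes divided into followers of the filaments and Eno3. Ckm, muscle creatine kinase, which recharges ATP from phosphocreatine, was at 16.2, 6.31, 10.1 and 0.705 RPKM in no-dox tumors, at 29.0, 73.8, 20.4 and 15.9 in plus-dox tumors and at 6.13, 97.8, 172 and 1.84 in off-dox tumors. Mb, the oxygen carrier myoglobin of oxidative fibres, was at 6.47, 1.93, 3.53 and 0.340 RPKM in no-dox tumors, at 2.18, 7.67, 2.15 and 4.33 in plus-dox tumors and at 11.5, 14.6, 25.3 and 0.0280 in off-dox tumors. Pygm, muscle glycogen phosphorylase, ran from 0.123 to 25.1 RPKM. Ckm and Mb were both highest in off-dox tumor 3, but Mb was higher in off-dox tumor 1 than in any plus-dox tumor, while Ckm was lower there than in every plus-dox tumor. Per unit of Acta1, Mb in off-dox tumor 1 was at a ratio of 0.269, against 0.00991 to 0.114 in the other 11 tumors. Eno3, the muscle enolase of glycolysis (mm9 chromosome 11, 70470715 to 70476015), was at 38.7, 17.4, 69.5 and 18.2 RPKM in no-dox tumors, at 32.9, 139, 25.3 and 31.5 in plus-dox tumors and at 11.2, 58.9, 75.3 and 62.5 in off-dox tumors. Off-dox tumor 4, where Acta1 was at its lowest, thus held 62.5 RPKM of Eno3, and its correlation with the mean of the other members was 0.41.

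Summed over fibre types, 14 fast members ranged from 12.4 RPKM in off-dox tumor 4 to 1158 RPKM in off-dox tumor 3, and the 5 slow members from 2.40 RPKM in plus-dox tumor 4 to 12.4 RPKM in off-dox tumor 1. The slow sum was 11.1 RPKM in off-dox tumor 3 and between 2.40 and 4.59 RPKM in the other 10 tumors. The slow level in off-dox tumor 2, 2.46 RPKM, was therefore among the lowest while its fast level, 856 RPKM, was the second highest. Tnnt3 made up 97.4 ± 1.17% of the RPKM of Tnnt1 and Tnnt3 in the plus-dox group, against 84.9 ± 17.3% for no-dox and 84.3 ± 18.5% for off-dox (SD, n = 4 each). The lowest single shares of Tnnt3 were 59.3% in no-dox tumor 4 and 60.3% in off-dox tumor 4, which held 55 and 54 counts of both genes together. No-dox tumors 1 to 3 were at 96.7%, 89.7% and 93.9%, and off-dox tumors 1 to 3 at 79.4%, 99.6% and 98.1%. The lower no-dox mean thus rests largely on tumor 4, with few muscle reads. The lower off-dox mean rests on tumor 4 and also on tumor 1, which held 535 counts of both genes together.

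The plus-dox against no-dox comparison asks what continued dox went with. Mutant p53 and dox itself cannot be told apart here, nor can the sucrose water, which is recorded for the dox groups only. edgeR's quasi-likelihood test with Benjamini-Hochberg adjustment, with calls at an adjusted p under 0.1, over 1.5-fold, a mean over 0.25 RPKM and an exonic length over 250 bp, called 0 of the 37 genes, and 0% of the 17561 genes tested. At an unadjusted p under 0.05 there were 5 members, beside 13.7% of all genes, and DESeq2 called 4 members, beside 0.729% of all genes. The median log2 fold change of the 37 genes was 1.29, against 0.01 over all genes, and 34 of 37 were above 0. For 23 members it was above 1, beside 6.18% of all genes. For 7 members the plus-dox values were all above the no-dox values, beside 4.37% of all genes, and for 0 they were all below, beside 4.49%. The 7 were Actn3, Atp2a1, Cacna1s, Casq1, Myh7, Pvalb and Speg. For Myh7 the separation rests on 1 count in plus-dox tumor 4 against 1 count in the deeper library of no-dox tumor 4. Actn3 had a log2 fold change of 3.49 (SE 1.05), Pvalb of 3.23 (SE 1.35), Atp2a1 of 2.42 (SE 1.18) and Speg of 0.91 (SE 0.26). By contrast Acta1 had 0.95 (SE 1.10), Mb 0.44 (SE 1.05), Myh1 0.65 (SE 1.22) and Actn2 -0.68 (SE 1.07), each smaller in size than its standard error. As the members were picked with all 3 comparisons known, nothing is read from the counts of members here or in the comparisons that follow.

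The off-dox against no-dox comparison asks what remained or arose once dox was withdrawn, and it shares the no-dox tumors with the comparison above. edgeR called 2 of the 37 genes, beside 1.34% of the 17561 genes; both were higher in off-dox tumors (1.03% of all genes), and 0 were lower (0.307%). The called members were Actn3, with a log2 fold change of 4.53 (SE 1.09), and Igfn1, with 8.19 (SE 2.19); a fold for Igfn1 rests on 3 no-dox counts. At an unadjusted p under 0.05 there were 23 members, beside 20.4% of all genes, and DESeq2 called 16 members, beside 3.5% of all genes. The median log2 fold change was 2.50, against 0.01 over all genes, and all 37 were above 0. For 34 members it was above 1, beside 6.71% of all genes. Only Igfn1 and Speg had every off-dox tumor above every no-dox tumor, beside 5.85% of all genes, and 0 members were the other way round, beside 5.69%. Myh4 had 5.15 (SE 1.50), Pvalb 4.81 (SE 1.43), Mylpf 2.84 (SE 1.00) and Acta1 2.03 (SE 1.13), and for each of them the off-dox group held the highest of all tumors as well as a tumor within or below the no-dox range. Eno3 had 0.56 (SE 0.68) and Tnnc1 0.43 (SE 0.37). The count of members called depended on single tumors: it was 9 without off-dox tumor 1 (789 of all genes called), 5 without plus-dox tumor 2 (352), 1 without plus-dox tumor 1 (208), and 0 without any 1 of the other 9 tumors.

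Off-dox against plus-dox asks what 3 days without dox changed. edgeR called 0 of 37 genes and 0% of all genes, DESeq2 called 0 members beside 0.0342% of all genes, and at an unadjusted p under 0.05 there were 2 members, beside 3.06% of all genes. The median log2 fold change was 1.13, against 0.00 over all genes, with 34 of 37 above 0 and 28 above 1, the latter beside 2.88% of all genes. For 0 members the groups did not overlap, beside 0.649% of all genes higher and 0.752% lower without overlap.

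Most other genes of mature skeletal muscle peaked in the same tumor as most members. A list of 59 further genes of mature muscle, all tested, had 0, 3 and 0 called genes in the plus-dox against no-dox, off-dox against no-dox and off-dox against plus-dox comparisons, with median log2 fold changes of 0.74, 1.63 and 0.86. There were 5, 30 and 2 of them at an unadjusted p under 0.05, beside 13.7%, 20.4% and 3.06% of all genes. DESeq2 called 2, 15 and 0, beside 0.729%, 3.5% and 0.0342% of all genes. The same shares of all genes stand beside the counts of every list that follows. The 3 called, all higher in off-dox tumors, were Zmynd17, an older symbol of Mss51 (log2 fold change 1.88, SE 0.44), Stac3 (1.63, SE 0.43), which couples the voltage sensor to the release channel, and Jph1 (1.63, SE 0.39), which ties the surface membrane to the sarcoplasmic reticulum. In edgeR their Benjamini-Hochberg adjusted p-values were 0.0875, 0.0950 and 0.0875. These calls were not stable: 0 genes were called in this comparison without any 1 of 7 of the tumors, under a replicate block or at an adjusted p under 0.05. Of the 59 genes, 50 had their highest level in off-dox tumor 3, as had 31 of the 37 members. The exceptions with the least likeness to the mean of the 37 genes over the 12 tumors, named after their values were seen, were Dmd, dystrophin (r -0.28), and Fbp2, muscle fructose bisphosphatase (r -0.02). The 3 of the highest level were Ankrd23, a titin-associated stress protein, with 6.72 ± 4.76, 15.4 ± 12.7 and 24.1 ± 24.1 RPKM in no-dox, plus-dox and off-dox tumors (SD, n = 4), Cox7a1, a subunit of muscle cytochrome oxidase, with 12.9 ± 2.36, 12.5 ± 2.44 and 16.8 ± 5.93, and Pfkm, muscle phosphofructokinase, with 10.1 ± 0.966, 12.9 ± 4.54 and 15.6 ± 6.31. None of these 3 was called.

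Genes of muscle precursors and of developing muscle were also examined. Of 14 myogenic regulators and satellite cell genes, 12 were tested and edgeR called 0 in any comparison, with 1, 4 and 1 at an unadjusted p under 0.05 and 0, 2 and 0 by DESeq2; Pax7, the satellite cell factor, and Myf5 had 8 and 3 counts over all 12 tumors and were not tested. Of the 12 tested regulators, 6 were highest in off-dox tumor 3, like most members, and 1 in off-dox tumor 1. Of 12 genes of developing and regenerating muscle edgeR also called 0, with 1, 4 and 5 at an unadjusted p under 0.05 and 1, 0 and 0 by DESeq2. Of these 12, 6 had their highest level in off-dox tumor 1, where 4.14% of all genes did. The other 6 peaked elsewhere, 3 of them in plus-dox tumor 2, and the summed level of the 12 genes was 62.6 RPKM in off-dox tumor 1, against 81.0 in plus-dox tumor 2 and 105 in off-dox tumor 4. The genes described next, Myog and 5 of the 6, were picked after their values were seen because they were highest there. Myog, a regulator that switches myoblasts to differentiation, was at 1.54 RPKM in off-dox tumor 1 and at most 0.235 in the other tumors. Myh3, the embryonic heavy chain, was at 0.319 RPKM there and at most 0.0454 elsewhere, and Myh8, the perinatal heavy chain, at 0.371 and at most 0.0569. Actc1, the cardiac actin that fetal muscle also uses, was at 0.967 RPKM there and at most 0.168 elsewhere, and Chrng, the fetal subunit of the acetylcholine receptor, at 0.297 and at most 0.101. These levels rested on 56, 47, 56, 33 and 14 counts in off-dox tumor 1. Myl4, an embryonic and atrial light chain, was at 8.36 RPKM there, at 2.72 in off-dox tumor 3 and between 0.669 and 1.39 in the other 10 tumors. The tumor that led for these genes was also the tumor with the highest Tnnc1, Tnni1 and Tnnt1, and it was 1 tumor of 4.

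**Figure D5:**
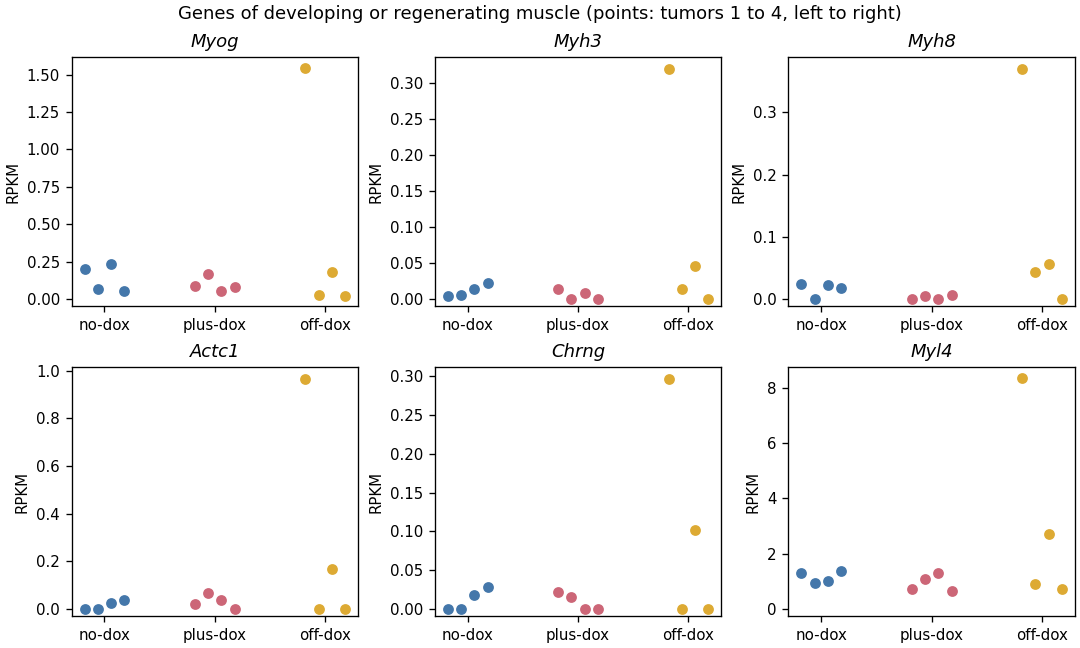
Levels of 6 genes of developing or regenerating muscle in RPKM (vertical axes differ between panels), 1 point per tumor, with tumors 1 to 4 of each group from left to right. Off-dox tumor 1 is the highest in all 6 panels, and off-dox tumor 3 is next in 5 of them, all but Myog.

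Markers of other tissues were set beside these levels. Counts at unadjusted p under 0.05 and DESeq2 calls are given for plus-dox against no-dox, off-dox against no-dox and off-dox against plus-dox in this order. Of 9 heart genes edgeR called 0 (unadjusted 1, 1 and 0, DESeq2 0, 0 and 0), and their summed level lay between 0.851 and 4.48 RPKM in all tumors, with Myh6, the atrial heavy chain, at 18 counts over all 12. Smooth muscle genes summed to 304 to 557 RPKM (no-dox), 343 to 554 (plus-dox) and 294 to 439 (off-dox), and 0 of 9 were called (unadjusted 2, 2 and 0, DESeq2 0, 1 and 0). Adipocyte genes summed to 44.4 to 1177 RPKM (no-dox), 50.0 to 755 (plus-dox) and 66.3 to 356 (off-dox), with 0 of 12 called (unadjusted 0, 1 and 0, DESeq2 0, 0 and 0), and they were highest in no-dox tumor 1 for 11 of 12 genes. Tumor epithelium genes summed to 2677 to 3595 RPKM (no-dox), 1411 to 2294 (plus-dox) and 1220 to 3044 (off-dox), with 0 of 10 called (unadjusted 1, 1 and 0, DESeq2 1, 1 and 0). Of 13 skin and hair follicle genes tested, 3 were called lower in off-dox than in no-dox tumors: Krt14, Krt71 and Krt73, with log2 fold changes of -1.72, -7.13 and -6.54. The list was lower in plus-dox tumors too (unadjusted 7, 6 and 1, DESeq2 3, 4 and 0), with median log2 fold changes of -1.42, -1.24 and 0.28. No-dox tumor 1 held the highest level of 8 of the 13. Like all edgeR calls of this comparison, these were lost when some single tumors were left out. Of 10 genes of the neuromuscular junction 0 were called (unadjusted 0, 2 and 0, DESeq2 0, 0 and 0). Of 8 atrophy genes (unadjusted 0, 3 and 2, DESeq2 0, 3 and 1) Mt1, a metallothionein, was called lower in off-dox than in no-dox tumors (-0.67, SE 0.13). The part of epithelial, skin or fat content in the muscle levels was not tested.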

How the data were processed

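Poly(A)+ RNA from 12 whole subcutaneous tumors (4 per group) was sequenced by the authors as 50-base single-end reads without strand information. Per the submitters' processing notes, CASAVA 1.8.2, Bowtie 0.12.8, TopHat 1.4.1 and bedtools 2.16.2 were used with mm9; the annotation was RefSeq, reduced by the authors to unambiguous exonic spans per gene. Each deposited file gives, for 22630 genes, an estimated count (an expected count that need not be whole) and an RPKM value, which the authors divided by exonic length and mapped reads. Reads from strand partners cannot be told apart in such libraries.

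Counts were rounded and tested here with edgeR 4.0.16 (quasi-likelihood, TMM, R 4.3.3) with all 12 tumors fitted together by group and no covariate, on the 17561 genes that reached 10 counts in total. A gene was called at an adjusted p under 0.1 (Benjamini-Hochberg), with a change over 1.5-fold, over 250 bp of exon and, across the compared tumors, an average RPKM over 0.25. Log2 CPM used a prior count of 2. DESeq2 1.42.0, other filters, a stricter adjusted p of 0.05, only the 8 tumors compared, a replicate block and leaving out each tumor in turn were alternatives. The scripts were tested on simulated data. The members, lists and comparisons were chosen with earlier results of these tumors known.

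Given tumor by tumor were the 3 members of the highest mean RPKM in each role, plus Myh1, Myh2, Myh4, Myh7, Tnni1, Tnnt1, Tnnc1, Actn3 and Igfn1; Speg, Actn2 and other genes outside this rule were added after their values were seen. From each other list, at most the 3 tested genes of the highest mean RPKM and any called were eligible, and outside the lists the 10 genes most correlated with the members. Promoter windows came from RefSeq (GRCm38.p6), and shared 50-base words from GENCODE transcripts on the build equal to mm9. Replicate numbers only name tumors: over 14548 genes, the mean correlation of deviations was -0.09 between tumors of the same number and 0.04 between others. A further allele of the line is not reported here.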

Additional observations from a re-analysis of the deposited data

Results flagged for a closer look

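Within a group of 4 tumors, a tumor was singled out when its gap to the nearest other, divided by the range of the group, passed Dixon's 95% critical value. Of 114 sets of values, for the 37 genes and their summed level in 3 groups, 15 passed, and chance alone marks about 1 in 20 groups; the sets are not independent, since the genes of a tumor move together. Plus-dox tumor 2 accounted for 11 of them. It stood above the other plus-dox tumors for the summed level of the 37 genes (2054 CPM, next 748), Tnnt3 (56.6 RPKM, next 24.7), Tnnc2 (58.4, next 22.6), Atp2a1 (51.5, next 15.5), Pygm (13.4, next 3.65) and Eno3 (139, next 32.9). It did so too for Casq1 (5.84, next 2.81), Trdn (2.27, next 0.815), Neb (1.995, next 0.728), Ttn (1.19, next 0.364) and Cacna1s (0.921, next 0.343). Off-dox tumor 3 stood apart for Igfn1 (3.14 RPKM, next 0.299), Myl2 (2.52, next 0.158) and Myh7 (0.394, next 0.0219). The remaining case was Myh7 in no-dox tumor 4, at 0.00482 RPKM, which is 1 count against none in the other no-dox tumors.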

How the results depend on the processing

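Medians of the 37 genes and their summed levels kept their direction under every alternative run. Leaving out each tumor in turn, the medians were 0.76 to 1.82 (plus-dox against no-dox), 1.68 to 3.14 (off-dox against no-dox) and 0.39 to 1.74 (off-dox against plus-dox), and mean summed levels were 285 to 466 CPM (no-dox), 648 to 1153 (plus-dox) and 1150 to 2598 (off-dox). Counts of calls did not keep. With DESeq2, 128, 615 and 6 genes were called in the 3 comparisons, and 4, 16 and 0 members. For off-dox against no-dox, 122 genes and 1 member were called without a count filter, 365 and 4 with at least 10 counts in every tumor, 3 and 0 with only the 8 tumors compared, and 0 and 0 at an adjusted p under 0.05. Leaving out 1 tumor gave 0 to 789 genes and 0 to 9 members in that comparison: 789 genes without off-dox tumor 1, 19 without plus-dox tumor 3, 1 without no-dox tumor 3, and 0 when the tumor left out was number 1, 2 or 4 of no-dox, 4 of plus-dox or 2, 3 or 4 of off-dox. The other comparisons gave 0 to 3 genes (plus-dox against no-dox) and 0 to 1 (off-dox against plus-dox), with 0 members. The cause was not tested. Under a replicate block, 0 genes and 0 members were called in off-dox against no-dox and the medians were 1.84, 2.14 and 0.37; equal numbers are not known to share a mouse, and 2 of 12 tumors correlated best with their own number. Depth limits Myh7 and Igfn1, with 1 and 3 no-dox counts.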

Other observations

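Outside the fixed lists, the 10 genes whose log2 CPM over the 12 tumors was most correlated with the mean of the 37 genes, of 14347 ranked, were Cmya5 (r 0.98), Cap2 (0.97), Hhatl (0.97), Jsrp1 (0.96), Myo18b (0.95), Trim72 (0.94), Smyd1 (0.94), Pdlim3 (0.94), Tpm2 (0.94) and 3425401B19Rik (0.93). They were ranked on these values, over tumors that share libraries and depth, so the correlations carry no test. Several are known from muscle: Jsrp1 sits at the junctions of the sarcoplasmic reticulum, Trim72 takes part in repair of the fibre membrane, Smyd1 is a methyltransferase of striated muscle, and Tpm2 is a tropomyosin of the thin filament. All 10 had their highest level in off-dox tumor 3. Tpm2 was the most abundant, from 21.6 to 74.0 RPKM, and had the narrowest span relative to its lowest level. Pdlim3 ran from 0.190 to 13.8 RPKM and Jsrp1 from 0.239 to 5.59.

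Myogenic regulators that are also used outside muscle led their list. Mef2d was at 12.8 ± 0.943, 16.2 ± 1.07 and 16.7 ± 0.926 RPKM in no-dox, plus-dox and off-dox tumors (SD, n = 4). The no-dox tumors lay below all others, beside 4.37% of all genes for plus-dox and 5.85% for off-dox tumors. Its log2 fold changes of 0.35 (SE 0.10) and 0.42 (SE 0.10) were under the 1.5-fold limit. In plus-dox against no-dox, the smallest Benjamini-Hochberg adjusted p of any gene in edgeR was 0.32. Mef2c was at 3.83 ± 0.343, 4.38 ± 0.957 and 6.21 ± 2.48 RPKM, and Cdh15 at 2.41 ± 0.771, 2.03 ± 0.223 and 2.73 ± 1.06. Among the genes of developing and regenerating muscle, Tnnt2 was at 38.6 ± 10.4, 40.2 ± 5.73 and 51.1 ± 22.3 RPKM, far above the embryonic heavy chains, and Ncam1 at 6.38 ± 1.90, 5.89 ± 1.92 and 6.17 ± 1.45. Chrna1, a receptor subunit of the neuromuscular junction, reached 19.4 RPKM in the highest plus-dox tumor and 0.643 in the lowest no-dox tumor. Both are extremes of single tumors and give no difference between groups. edgeR called 0 of the 12 genes of this list in any comparison.

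Several of the 37 genes lie near each other in mm9, with 1 to 3 other genes between those named next. Tnni2 and Tnnt3 lie 54430 bases apart on chromosome 7, and Des and Speg lie 7581 bases apart on chromosome 1 although Des followed the mean of the other members (r 0.93) more closely than Speg (0.57). Tnni1, Igfn1 and Cacna1s lie in order on chromosome 1, with r of 0.09, 0.57 and 0.97. Of the 37 genes, 24 share no 50-base word with another gene; the largest share was in Tnnc2, where 55.0% of words also occur in Ube2c, and 22.8% of the words of Ckm occur in A930016O22Rik.

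Other marker lists gave these summed RPKM ranges for no-dox, plus-dox and off-dox tumors; edgeR calls are over all 3 comparisons, and counts at an unadjusted p under 0.05 follow in the order used above, then those of DESeq2. Fibroblast genes summed to 1209 to 2157, 1714 to 3229 and 1402 to 1623, with 0 of 10 called (5, 1 and 4; 1, 1 and 0). Endothelial genes summed to 46.0 to 71.7, 61.8 to 172 and 56.3 to 80.4, with 0 of 10 called (5, 0 and 0; 1, 0 and 0). Plus-dox tumor 2 held the highest level of 7 of the 10 fibroblast and 9 of the 10 endothelial genes, beside 14.9% of all genes. Macrophage genes summed to 1277 to 1603, 1200 to 1479 and 1043 to 1805, with 0 of 10 called (0, 1 and 0; 0, 0 and 0) and 8 of 10 highest in off-dox tumor 3. Schwann cell and nerve genes summed to 124 to 173, 93.3 to 111 and 52.9 to 146, with 0 of 11 called (0, 1 and 0; 0, 0 and 0). Of 6 red blood cell genes, 2 were tested; 0 were called by edgeR or DESeq2, and 0 had an unadjusted p under 0.05 in edgeR.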
